A study of Homo sapiens with 12 samples.

Results

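The mRNAs of 9 genes of the Notch pathway were followed in A673 cells after transcription had been blocked. They are the receptors NOTCH1, NOTCH2 and NOTCH3, the ligands JAG1 and JAG2, and the basic helix-loop-helix genes HES1, HES4, HES6 and HEY1, which are called targets here. Each was taken by its symbol from a count table of 26334 gene symbols, and all 9 were found. Of these, 7 averaged 10 counts or more over all libraries and entered the tests, which covered 12032 genes in all. HES4 (mean 9.33 counts) and HEY1 (mean 1.58 counts) did not.

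A673 is an established Ewing sarcoma cell line, and the labels name the cells shA673-1c. All groups were grown in the same medium with Blasticidin and zeocyn, and no label names an inducer or the target of a hairpin RNA. Cells in 6-well plates received 5 µM actinomycin D, a DNA-binding drug that blocks transcription, and RNA was collected at 0, 1, 2 and 4 h with 3 biological replicates per time. The 0 h group is the untreated reference, and no vehicle series was analysed here. Every library therefore comes from 1 line, and in such bulk RNA fewer cells and less RNA per cell cannot be told apart.

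In Notch signalling, a ligand of the JAG or DLL family on one cell binds a NOTCH receptor on its neighbour. ADAM proteases and gamma-secretase then cleave the receptor, and its intracellular domain moves to the nucleus, where it joins the DNA-binding protein RBPJ and a MAML coactivator to switch on HES and HEY genes. The HES and HEY proteins are repressors, and HES1 represses its own gene, so that short-lived HES1 mRNA is a known part of HES1 oscillations in many cell types.

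The series as a whole held between 9147018 and 11194705 counts per library. Within each time, all 12 pairs of replicates differed by more than counting noise, with a ratio of chi-square to its degrees of freedom between 3.21 and 8.67. The short-lived mRNAs MYC, JUN and IER2 fell with slopes of -1.12, -0.89 and -0.84 log2 units per hour. Of 10 Ewing sarcoma markers, 9 passed the count filter, whereas CD99, a surface protein used to diagnose the tumour, was listed at 0 in every library. How reads that match several places were counted is not given, so this 0 does not show that CD99 mRNA was absent. The summed level of the 10 markers was 2764 to 3009 CPM (counts scaled to the library's effective size) at 0 h and 3165 to 3503 CPM at 4 h, most of it from CCND1 and JAK1. Of the 9 tested markers, 3 fell and 2, CCND1 and JAK1, rose by slope (edgeR, adjusted p below 0.05). Over all tested genes these shares were 32.1% and 30.7%. FLI1 fell from 80.1 ± 2.07 to 20.4 ± 4.43 CPM, NR0B1 from 38.2 ± 5.05 to 9.05 ± 1.23 CPM and NKX2-2 from 7.08 ± 0.80 to 1.17 ± 0.38 CPM. Of 11 markers of other cell types, 2 (KRT18 and DES) passed the filter, and the summed level of these 11 was 237 to 370 CPM at 0 h and 238 to 366 CPM at 4 h.

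Short stretches of the DNA and mRNA of these genes come first, since NOTCH acts through RBPJ at promoters. Whether any of these sequences bears on the rate at which an mRNA was lost was not tested. In RefSeq promoter windows (GRCh38.p14, 300 bases around the gene start), 8 of the 9 genes were found, and HEY1 was not among them. The core RBPJ motif TGGGAA, searched on both strands, occurred in 24.3% of 27305 promoters, and 3.81% held at least 2 matches. HES1 held 2 matches and HES4 held 1, whereas HES6, the 3 receptors and the 2 ligands held 0. The windows of 30 bases around these matches, in capitals, lay at chr3:194136060-194136089 on the plus strand for HES1 and at chr1:1000148-1000177 on the minus strand for HES4.
HES1 promoter: actgTGGGAAagaaagttTGGGAAgtttca
HES4 promoter: agtgTGGGAAagaatgcggagccgggttca

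In the 3′ UTRs of the canonical transcripts of GENCODE version 44, the AU-rich letters ATTTA and the Pumilio motif TGTANATA were searched on the sense strand. Of 10720 3′ UTRs, 75.7% held ATTTA and 31.9% held TGTANATA. HES1 has a 3′ UTR of 499 bases with 0 ATTTA and 1 TGTANATA. Among 896 3′ UTRs within 20% of that length, 55.9% held ATTTA and 12.5% held TGTANATA. JAG1 has 1814 bases with 9 ATTTA, a number that 9.61% of 3′ UTRs of like length reached. NOTCH1 has 6 (reached by 23.6%), NOTCH2 7 (60.8%) and NOTCH3 4 (45.4%). JAG2 has 1 (87.9%), HES4 1 (15.6%), HES6 0 and HEY1 7 (6.95%). TGTANATA also occurred in NOTCH2 (2 matches) and in NOTCH1, JAG1 and JAG2 (1 each), but not in NOTCH3, HES4, HES6 or HEY1. A window of 30 bases is shown for 3 genes, with matches in capitals. HES1 and JAG1 are the mRNAs that fell, and NOTCH1 is a receptor with ATTTA repeats that did not pass the test. For JAG1 and NOTCH1 the capitals mark TATTTAT, which was also searched, and the ATTTA within it. TATTTAT occurred in 37.9% of the 10720 3′ UTRs. JAG1 has 5 matches (40.7% of 3′ UTRs of like length held at least 1) and NOTCH1 4 (38.1%). NOTCH3 has 2, NOTCH2 and HES4 have 1 each, and JAG2, HES1, HES6 and HEY1 have 0. The windows start at base 184 of the 3′ UTR for HES1, base 341 for JAG1 and base 139 for NOTCH1, counted from the base after the stop codon. A match is a description of the sequence and not of binding.
HES1 3′ UTR: actatattTGTATATAttttatatgttcat
JAG1 3′ UTR: catagtttTATTTATATTTATtgactcttg
NOTCH1 3′ UTR: ttttttagTATTTATTTATgtacttttatt

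The first question was which of these mRNAs were lost after transcription stopped. HES1 was nearly gone by 4 h, JAG1 fell moderately, and the other 5 tested mRNAs did not pass the test. Change over the course was fitted by edgeR as a slope in log2 units per hour relative to the scaling of all libraries, with Benjamini-Hochberg adjustment over 12032 genes. The slope was negative and past the adjusted threshold of 0.05 for 2 of the 7 tested genes, beside 32.1% of all tested genes, and positive for 0 of 7, beside 30.7%. This fit has no replicate block. With the block 2 were negative and 1, NOTCH3, was positive, beside 4182 and 4356 of all 12032 tested genes. As a share, 2 of 7 was near that background, so the count says nothing particular of these genes. At 4 h, the replicates lay wholly below those at 0 h for HES1 and JAG1, beside 33% of all tested genes.

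**Figure D1:**
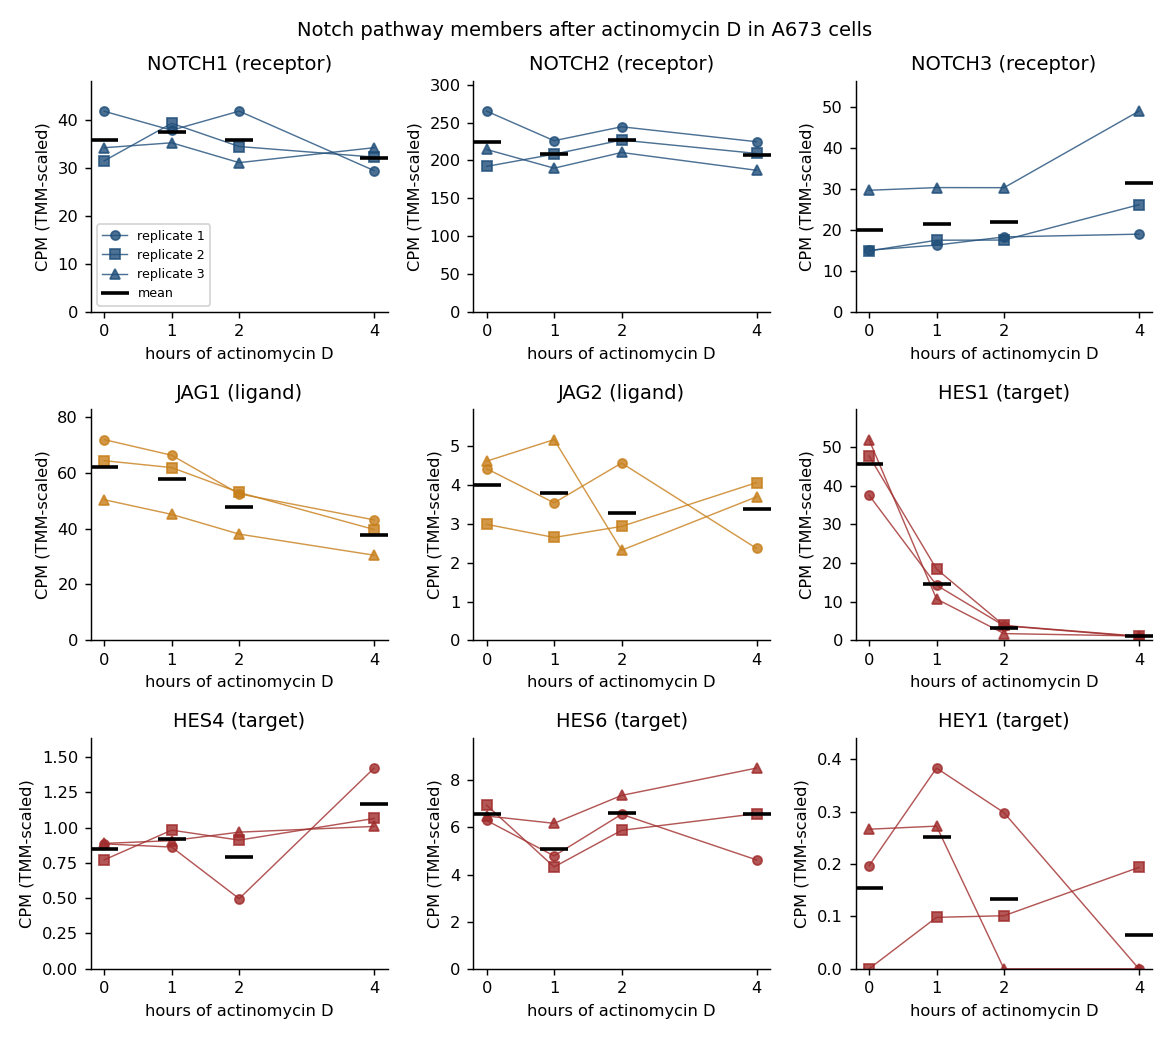
Level of each of the 9 mRNAs in CPM (vertical axes, linear and starting at 0) against hours of actinomycin D, with a line per replicate and a black bar for the mean of 3. HES1 drops from a mean of 45.8 to 1.04 CPM and JAG1 from 62.2 to 37.8 CPM, whereas HEY1 never exceeds 4 counts in a library.

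Among the targets, HES1 encodes the repressor that is the classical readout of Notch activity. At 0 h it was at 37.6, 47.8 and 52.0 CPM in replicates 1, 2 and 3, and at 1 h at 14.3, 18.5 and 10.7 CPM. It was at 3.78, 3.85 and 1.74 CPM at 2 h and at 0.948, 1.07 and 1.12 CPM at 4 h, the last from 8 to 11 counts per library. No replicate of any time overlapped those of an earlier time, and the mean fell from 45.8 ± 7.40 (SD, n = 3) to 1.04 ± 0.088 CPM. This left 31.6% of the 0 h mean at 1 h, 6.82% at 2 h and 2.28% at 4 h, which was 43.8-fold lower.

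The HES1 slope was -1.59 log2 units per hour (SE 0.096, edgeR quasi-likelihood test, Benjamini-Hochberg adjusted p = 2.33e-09), or a half-life of 0.628 h. It ranked 5 from the lowest of 12032 slopes, of which the median was 0.0093 and the lowest -1.98. Least-squares slopes of the single replicates, on log2 CPM with 0.5 added to each count, were -1.32, -1.38 and -1.35. These were all shallower than the edgeR slope. DESeq2's Wald test gave -1.41, and limma gave -1.33 on log2(CPM + 0.1) and -1.12 on log2(CPM + 1). The half-life therefore depends on the fit, with 8 to 11 counts per library at 4 h. The courses of the replicates also differed between 0 and 4 h. Replicate 3 kept 20.6% of its 0 h value at 1 h, against 38.0% and 38.7% in replicates 1 and 2.

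HES1 was already lower at 1 h. The log2 difference from 0 h was -1.66 (SE 0.20, edgeR, Benjamini-Hochberg adjusted p = 0.00048), and HES1 was the 1 tested gene of the 7 called lower, beside 2.24% of all tested genes; 0 were called higher, beside 0.349%. Without replicate 2, the difference was -1.84 and missed the threshold (edgeR, adjusted p = 0.0757). At 2 h against 0 h the difference was -3.88, again with HES1 as the 1 member of the 7 called lower, beside 19.4% of all tested genes. None of the 7 was called higher at 2 h, beside 10.8%.

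Per hour, the log2 level of HES1 moved by -1.68 ± 0.52 (SD over 3 replicates) from 0 to 1 h, by -2.25 ± 0.34 from 1 to 2 h and by -0.72 ± 0.37 from 2 to 4 h. The last rate was -0.30 in replicate 3, against -0.96 and -0.90 in the other two. The departure of HES1 from a straight line over the 4 times was not called (edgeR, adjusted p = 0.151), and 0 of the 7 genes were, beside 2.7% of all tested genes. With replicate number as a block, HES1 was called (edgeR, adjusted p = 0.0151), as it was without the count filter (adjusted p = 0.0468). Same-numbered replicates deviated together (the check of pairing is given with the processing), so blocked values are given for these genes where they change a call, and as counts for the wider lists. At 2 h, remaining HES1 was 10.0%, 8.06% and 3.35% of its own 0 h value in the 3 replicates, and at 4 h it was 2.52%, 2.23% and 2.16%.

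**Figure D2:**
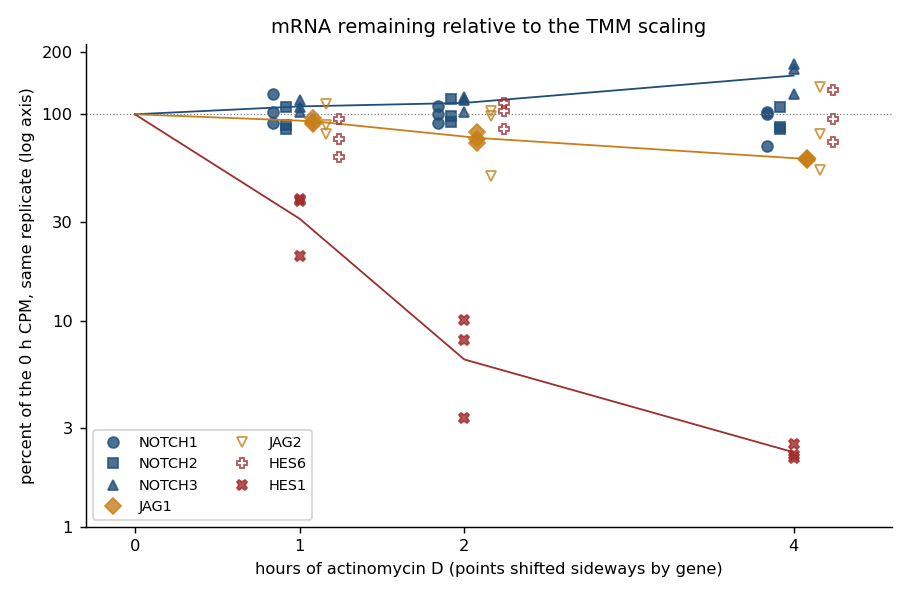
Share of the 0 h level that remained (percent, log scale) in each replicate against hours of actinomycin D for the 7 tested mRNAs, with lines through the means of HES1, JAG1 and NOTCH3. HES1 stood at 2.16% to 2.52% at 4 h and JAG1 at 60.0% to 61.7%, whereas NOTCH3 stood at 126% to 176%.

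HES6 encodes a HES protein known to oppose HES1. At 0 h it was at 6.29, 6.95 and 6.48 CPM, and at 1 h at 4.79, 4.32 and 6.17 CPM. It was at 6.56, 5.87 and 7.36 CPM at 2 h and at 4.62, 6.58 and 8.52 CPM at 4 h. The replicates at 4 h overlapped those at 0 h, and the slope was 0.029 (SE 0.053, edgeR, adjusted p = 0.65). Its direction was not stable, since it was -0.0089 with library totals and -0.11 when libraries were scaled to GAPDH plus ACTB. With the replicate block, HES6 was 0.37 log2 units higher at 4 h than at 1 h (edgeR, adjusted p = 0.0497), against an adjusted p of 0.156 without it.

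HES4 and HEY1, further repressors of the family, were too low for the tests. HES4 had 8 to 10 counts per library at 0 h, 9 or 10 at 1 h, 5 to 10 at 2 h and 9 to 12 at 4 h. In CPM its values were 0.885, 0.772 and 0.888 at 0 h and 1.42, 1.06 and 1.01 at 4 h, which did not overlap; non-overlap in this direction was found for 30.4% of tested genes. Its slope in a fit of 18937 genes without a filter was 0.10 (edgeR, adjusted p = 0.387).

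HEY1 had 2, 0 and 3 counts at 0 h, 4, 1 and 3 at 1 h, 3, 1 and 0 at 2 h, and 0, 2 and 0 at 4 h. At this depth no course could be read from it, and the slope without a filter was -0.29 (edgeR, adjusted p = 0.417).

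Of the ligands, JAG1 encodes Jagged 1. At 0 h it was at 71.9, 64.3 and 50.4 CPM, and at 1 h at 66.3, 61.9 and 45.1 CPM. It was at 52.5, 53.0 and 38.0 CPM at 2 h and at 43.1, 39.7 and 30.5 CPM at 4 h. Replicate 3 was the lowest at every time, yet the share left at 4 h was alike in the 3 replicates (60.0%, 61.7% and 60.5%). The mean fell from 62.2 ± 10.9 to 37.8 ± 6.54 CPM.

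The JAG1 slope was -0.19 (SE 0.040, edgeR, Benjamini-Hochberg adjusted p = 0.000748), or a half-life of 5.37 h. At 4 h against 0 h, JAG1 was -0.72 log2 units (SE 0.18, edgeR, adjusted p = 0.00304) and HES1 -5.43, and these were the 2 of 7 genes called lower, beside 31.6% of all tested genes. None of the 7 was called higher, beside 28.7%. At 4 h against 1 h the same 2 genes were lower (-0.61 for JAG1, adjusted p = 0.0101, and -3.77 for HES1), beside 28.5% of all tested genes called lower and 25.4% called higher.

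With 1 replicate left out, the differences of JAG1 between times kept their size and some missed the threshold. Without replicate 2, JAG1 was -0.73 at 4 h against 0 h (edgeR, adjusted p = 0.0505). At 4 h against 1 h it was -0.60 both without replicate 1 (edgeR, adjusted p = 0.054) and without replicate 2 (adjusted p = 0.11). JAG1 was called in both comparisons with the replicate block (edgeR, adjusted p = 2.73e-12 and 1.98e-10). At 2 h against 0 h, JAG1 differed by -0.38 (edgeR, adjusted p = 0.12), and it was called with the replicate block (adjusted p = 1.15e-06). Over 0 to 2 h only, the slope was -0.18 (edgeR, adjusted p = 0.129).

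JAG2, the gene of Jagged 2, was present at 20 to 57 counts per library. It was at 4.43, 2.99 and 4.62 CPM at 0 h and at 3.54, 2.65 and 5.17 CPM at 1 h. It was at 4.57, 2.94 and 2.32 CPM at 2 h and at 2.37, 4.07 and 3.70 CPM at 4 h, with overlap between all times. The slope was -0.065 (SE 0.071, edgeR, adjusted p = 0.444).

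Of the receptors, NOTCH1 was at 41.9, 31.5 and 34.3 CPM at 0 h and at 37.9, 39.4 and 35.3 CPM at 1 h. It was at 41.9, 34.5 and 31.2 CPM at 2 h and at 29.5, 32.3 and 34.3 CPM at 4 h. The 3 replicates at 4 h lay below those at 1 h and overlapped those at 0 and 2 h, and the slope was -0.047 (SE 0.029, edgeR, adjusted p = 0.169). With the replicate block, NOTCH1 was -0.22 log2 units at 4 h against 1 h (edgeR, adjusted p = 0.0277), against an adjusted p of 0.131 without it.

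NOTCH2 was at 265, 192 and 214 CPM at 0 h and at 226, 208 and 190 CPM at 1 h. It was at 244, 227 and 210 CPM at 2 h and at 225, 209 and 187 CPM at 4 h. All times overlapped, and the slope was -0.019 (SE 0.026, edgeR, adjusted p = 0.532). With the replicate block, the difference of -0.11 at 4 h against 0 h was called (edgeR, adjusted p = 0.0459), against an adjusted p of 0.388 without it. NOTCH2NL, a near-identical copy of the start of NOTCH2, had 135 to 194 counts per library and a slope of 0.040 (edgeR, adjusted p = 0.347), and how reads shared by the 2 genes were counted is not given in the sources used here.

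NOTCH3 was at 15.0, 14.9 and 29.7 CPM at 0 h and at 16.3, 17.5 and 30.3 CPM at 1 h. It was at 18.3, 17.5 and 30.3 CPM at 2 h and at 19.0, 26.1 and 49.0 CPM at 4 h. Replicate 3 was above the other two at every time, so that the times overlapped although each replicate was higher at 4 h than at 0 h (126%, 176% and 165%). The slope was 0.16 (SE 0.079, edgeR, adjusted p = 0.0822).

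With the replicate block, the NOTCH3 slope was again 0.16, with an SE of 0.026, and was called (edgeR, adjusted p = 3.63e-05). It was also called without replicate 3 (slope 0.14, adjusted p = 0.00327), without replicate 3 at 0 h (0.0179) or at 1 h (0.0493), and without replicate 1 at 4 h (0.0295). Without replicate 3 at 4 h, the highest library, the slope was 0.045 (edgeR, adjusted p = 0.64). The blocked difference at 4 h against 0 h was 0.66 (edgeR, adjusted p = 2.05e-07), beside 0.65 without the block (adjusted p = 0.136), and at 4 h against 1 h it was 0.55 (adjusted p = 4.35e-06 with the block and 0.216 without). These values are relative to the scaling, and with libraries scaled to GAPDH plus ACTB the NOTCH3 slope was 0.029 (edgeR, adjusted p = 0.792).

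In order of slope, the tested mRNAs ran HES1, JAG1, JAG2, NOTCH1, NOTCH2, HES6 and NOTCH3. HES1 and JAG1 differed by 1.16 ± 0.037 in the slopes of the single replicates (SD, n = 3, the same sign in 3 of 3). JAG1 and JAG2 (0.12 ± 0.17), JAG2 and NOTCH1 (0.018 ± 0.14), NOTCH1 and NOTCH2 (0.029 ± 0.052), and NOTCH2 and HES6 (0.040 ± 0.096) did not differ by more than the spread between replicates. HES6 and NOTCH3 differed by 0.13 ± 0.053, with the same sign in 3 of 3.

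The libraries held no added standard, so each slope is relative to the other mRNAs, and the choice of scaling moves all of them together. DESeq2's size factors moved the median slope of all genes by less than 0.01. Library totals moved it by -0.039, and scaling to GAPDH plus ACTB, which rose relative to other mRNAs, moved it by -0.14. At 4 h against 0 h, these shifts were -0.15 with library totals and -0.55 with GAPDH plus ACTB. HES1 fell under every scaling run, with a half-life of 0.584 h under GAPDH plus ACTB, and so did JAG1, with 3.08 h.

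With library totals, NOTCH1 (-0.086, edgeR, adjusted p = 0.0211) and NOTCH2 (-0.059, adjusted p = 0.0492) also passed as falling. With GAPDH plus ACTB, NOTCH1 (-0.18, edgeR, adjusted p = 3.53e-05), NOTCH2 (-0.16, adjusted p = 6.34e-06) and JAG2 (-0.20, adjusted p = 0.0239) did. Without the block and with all libraries, the receptors and JAG2 thus missed the threshold on the slope with TMM and with DESeq2's size factors, and NOTCH3 passed it with TMM and the block.

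**Figure D3:**
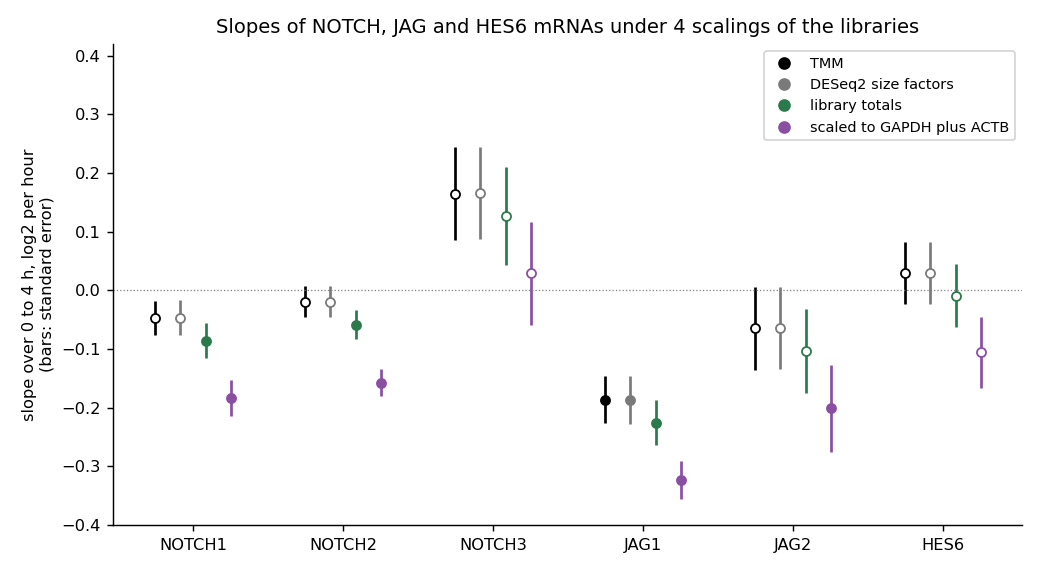
Slopes of 6 tested mRNAs, HES1 left out, in log2 units per hour (vertical axis) under 4 scalings of the libraries, with bars for the SE and filled points for slopes past the adjusted threshold of 0.05. JAG1 is filled under all 4, whereas HES6 lies at 0.029 with TMM and at -0.11 with GAPDH plus ACTB.

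Levels were compared between genes as CPM per kilobase of the canonical transcript. At 0 h, HES1 led with 29.1 ± 4.70, followed by NOTCH2 (19.6 ± 3.27), JAG1 (10.5 ± 1.84) and HES6 (4.81 ± 0.24). NOTCH1 (3.75 ± 0.56) and NOTCH3 (2.29 ± 0.98) overlapped each other. HES4 stood at 0.959, JAG2 at 0.695 and HEY1 at 0.0703. At 4 h, NOTCH2 led with 18.1, before JAG1 (6.36) and HES6 (4.81), then NOTCH3 (3.61) and NOTCH1 (3.35). JAG1 overlapped HES6, HES6 overlapped NOTCH3, and NOTCH3 overlapped NOTCH1. HES1 then ranked 7 of 9 with 0.663 and overlapped JAG2 (0.585).

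The second question was how the targets moved against the receptors and ligands within the same library. For each 100 reads of the 5 receptors and ligands, the 4 targets had 15.8 ± 3.88 reads at 0 h, 6.32 ± 0.80 at 1 h, 3.17 ± 0.080 at 2 h and 2.85 ± 0.65 at 4 h. As a difference of mean log2 CPM, in which each gene weighs the same, targets minus receptors and ligands was -3.68, -3.94, -4.64 and -4.99 at the 4 times. Its slope was -0.34 ± 0.11 per hour, with -0.36, -0.22 and -0.44 in the 3 replicates. HEY1, at 0 to 4 counts per library, weighs as much here as HES1. The replicate slopes of HEY1 were -0.58, 0.51 and -0.72, so part of the spread comes from a gene whose course could not be read. Both measures are within a library and do not depend on scaling.

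The difference rested on HES1. Without HES1, an alternative added after the values were seen, the slope was -0.016. Without HES4 and HEY1, also added later, it was -0.63, and with the counts of each side summed it was -0.59. No p-value is given for a score over chosen genes.

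**Figure D4:**
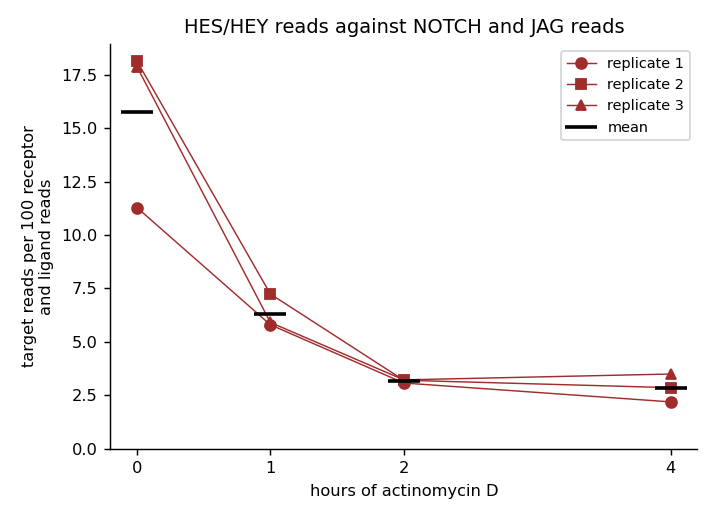
Reads of the 4 targets per 100 reads of the 5 receptors and ligands (vertical axis) against hours of actinomycin D, with a line per replicate and a black bar for the mean of 3. The mean goes from 15.8 at 0 h to 3.17 at 2 h and 2.85 at 4 h.

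The mRNAs whose courses were most like that of HES1 were sought among the 8856 genes averaging 100 counts or more, by the root mean square difference of log2 CPM, centred on each gene's own mean, over 12 libraries. They were CITED2, a partner of the coactivators CBP and p300 (difference 0.439, slope -1.26), NFKBIA, the inhibitor of NF-κB (0.494, slope -1.75), and DUSP6, a phosphatase of ERK (0.495, slope -1.19). Of the 0 h mean, CITED2 kept 4.24% at 4 h, NFKBIA 1.48% and DUSP6 5.27%. Their Pearson correlations with HES1 were 0.982, 0.986 and 0.985 across the same 12 libraries, which share depth and time. High values follow from picking the closest genes over these libraries. The 3′ UTR of NFKBIA holds 3 ATTTA, a number that 11.99% of 3′ UTRs of like length reached. That of CITED2 holds 3 (46.8%) and that of DUSP6 holds 1 (90.1%), beside 0 in HES1. TGTANATA had 1 match in NFKBIA, 2 in DUSP6 and 0 in CITED2, beside 1 in HES1.

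The wider pathway was taken as 65 other genes in 7 lists by role, of which 49 were tested. Of these, 22 fell, 20 rose and 7 did not pass, beside 32.1% of all tested genes falling and 30.7% rising, and their median slope was 0.0085, beside 0.0093 over all genes. The counts depend on the scaling: with GAPDH plus ACTB 31 fell and 0 rose, with library totals 23 fell and 10 rose, and with the replicate block 23 fell and 23 rose. Over all 12032 tested genes, 7729 fell and 112 rose with GAPDH plus ACTB. With library totals 4704 fell and 2242 rose, and with the block 4182 fell and 4356 rose. None of 6 further receptors and ligands passed the count filter.

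Of 8 further genes, the other genes of the HES and HEY families and NRARP, 3 were tested and 2 fell, beside 32.1% of all tested genes. NRARP, which encodes an inhibitor of Notch signalling and is itself a target, went from 2.39 ± 0.23 to 0.743 ± 0.38 CPM (slope -0.47, edgeR, adjusted p = 0.00125). HEYL went from 12.1 ± 0.96 to 4.70 ± 1.94 CPM (slope -0.36, edgeR, adjusted p = 0.000157). HES7 had a slope of -0.0093 and did not pass. NRARP (mean 13.8 counts) and HES7 (mean 11.4 counts) lay just above the count filter of 10.

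Receptor cleavage genes, which encode ADAM proteases, FURIN and gamma-secretase subunits, rose relative to the scaling in 7 of 9 and fell in 0, beside 30.7% of all tested genes rising and 32.1% falling. The block gave 7 that rose and 1 that fell, beside 4356 and 4182 of all 12032 tested genes. NCSTN, the gamma-secretase subunit nicastrin, had a slope of 0.13 (edgeR, adjusted p = 4.18e-07) and PSEN2, a catalytic subunit, 0.12 (adjusted p = 0.019). Library totals gave 3 of the 9 that rose and 1 that fell, beside 2242 and 4704 of all 12032 tested genes. There NCSTN still passed, and PSEN2 did not (slope 0.078, edgeR, adjusted p = 0.104). With GAPDH plus ACTB, 3 of the 9 fell and 0 rose, beside 7729 and 112 of all 12032 tested genes. Both NCSTN and PSEN2 then turned negative without passing the threshold. Of 4 tested glycosylation genes, 3 rose, beside 30.7% of all tested genes, among them RFNG (slope 0.14, edgeR, adjusted p = 0.000737), and LFNG fell (-0.098, adjusted p = 0.0157). RFNG and LFNG encode Fringe enzymes that add sugars to the receptors. With GAPDH plus ACTB, 3 of the 4 glycosylation genes fell and 0 rose, beside the same 7729 and 112.

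Among 8 genes of the nuclear complex and its coactivators, 6 fell and 2 rose, beside 32.1% and 30.7% of all tested genes. With GAPDH plus ACTB, 6 fell and 0 rose, beside 7729 and 112 of all 12032 tested genes. MAML2 went from 16.9 ± 2.28 to 2.39 ± 0.40 CPM, with a slope of -0.76 (edgeR, adjusted p = 2.01e-08) and a half-life of 1.32 h. MAML3 had a slope of -0.59 (edgeR, adjusted p = 1.87e-06) and RBPJ one of -0.12.

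Of 14 corepressor genes, 8 fell and 4 rose, beside 32.1% and 30.7% of all tested genes. These counts were 10 and 0 with GAPDH plus ACTB and 8 and 5 with the replicate block. Over all 12032 tested genes they were 7729 and 112 with GAPDH plus ACTB and 4182 and 4356 with the block. TLE3 went from 52.0 ± 3.23 to 16.5 ± 1.96 CPM (slope -0.43, edgeR, adjusted p = 6.03e-09), and TLE4 had a slope of -0.42. TLE proteins are the corepressors that HES and HEY proteins recruit. Of 11 tested ubiquitin ligases and endocytic regulators, 5 fell and 4 rose, beside the same 32.1% and 30.7%. These counts were 7 and 0 with GAPDH plus ACTB and 5 and 6 with the replicate block, beside the same all-gene counts at each setting. DTX2, a Deltex ligase, had a slope of -0.37 (edgeR, adjusted p = 4.17e-06), and FBXW7, which targets the intracellular domain for breakdown, had one of -0.24 (adjusted p = 0.0013).

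**Figure D5:**
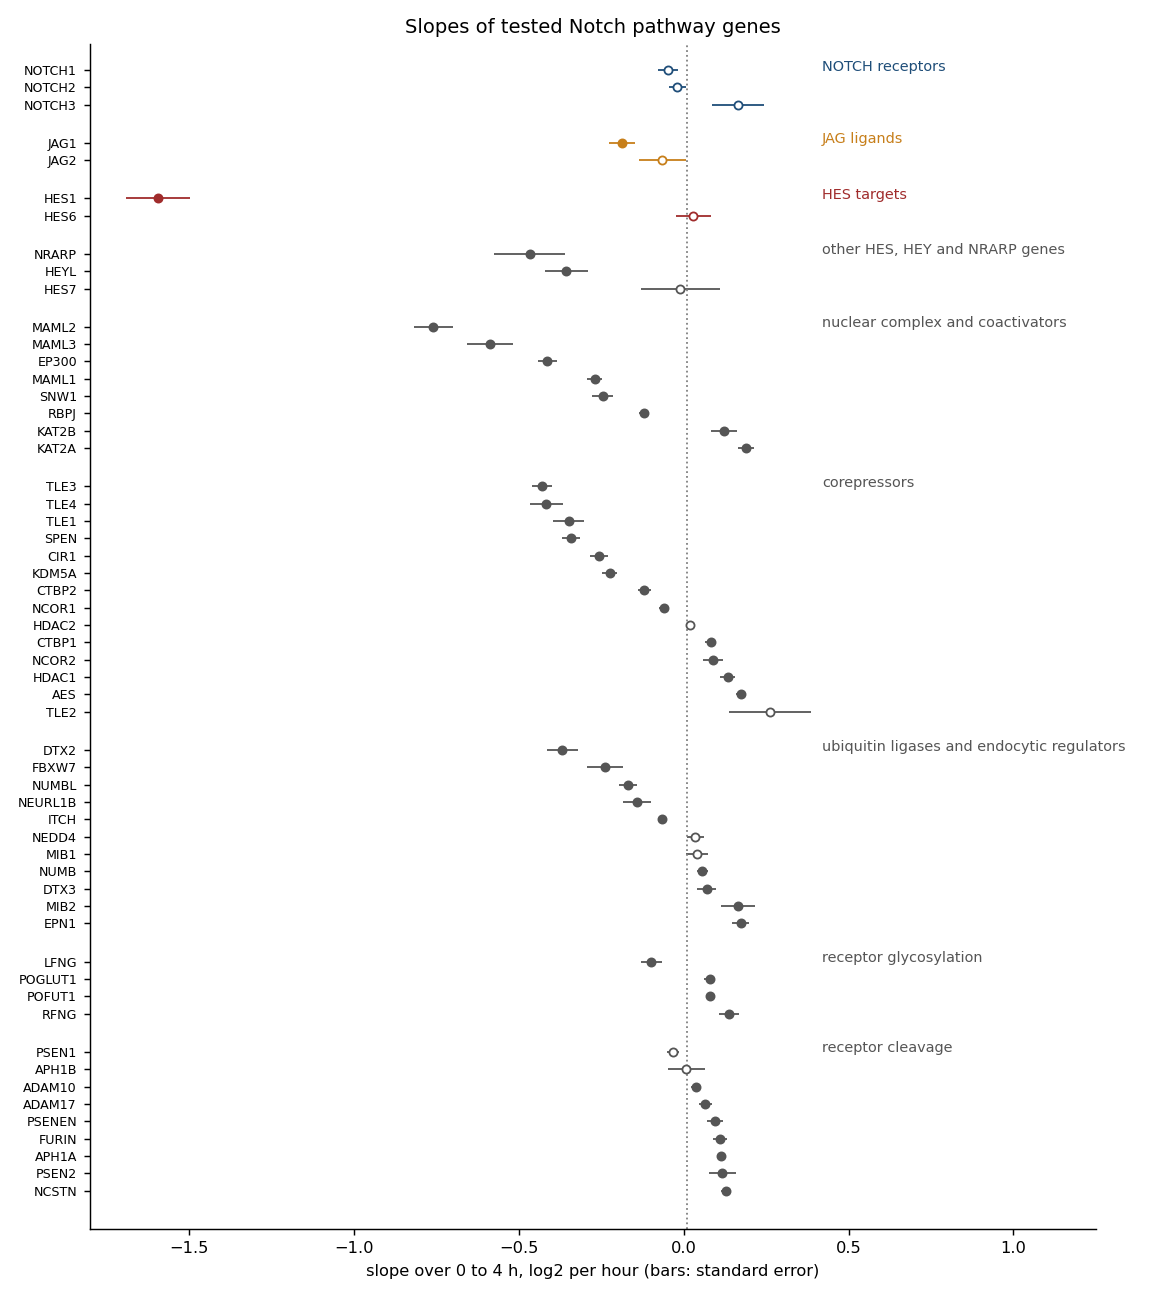
Slopes in log2 units per hour (horizontal axis) of the tested Notch pathway genes, grouped by role, with bars for the SE, filled points for genes past the adjusted threshold of 0.05 and a dotted line at the median of all genes, 0.0093. HES1 lies at -1.59, apart from the next lowest, MAML2, at -0.76.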

How the data were processed

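The authors deposited raw counts, as whole numbers per gene symbol, for 12 poly(A)-selected stranded libraries. The submitters' processing notes name STAR, FastQC and hg19, without versions. The paper's general account for this kit (Prinseq, STAR, Salmon, tximport) does not name these libraries, and the counter is not given in the sources used here. Since the reference supplied was GRCh38, the counted genes have no coordinates here, and those of promoter windows are RefSeq's on GRCh38.p14.

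Groups and replicates came from the labels. For genes averaging 10 counts or more, edgeR 4.0.16 was run under R 4.3.3 (TMM, glmQLFit, glmQLFTest), with time as a number or as 4 groups, and Benjamini-Hochberg adjustment at 0.05. Half-lives are the negative inverse of falling slopes. SEs were derived from F. The code was tested on simulated data.

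The genes and lists were chosen with earlier results of these data known. The wider lists name the 2 genes per role of largest absolute slope past the threshold, and RBPJ, HES7, CD99, KRT18, DES, CCND1, JAK1, FLI1, NR0B1 and NKX2-2 were added after their values were seen. The 3 closest patterns were sought for HES1 and not for HEY1, whose counts were too low.

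Same-numbered replicates of different times, paired by the labels' replicate numbers, correlated by 0.415 to 0.737 in their deviations from group means (18 pairs). Those of different numbers averaged -0.273 (36 pairs). Alternatives were library totals, DESeq2 1.42.0's size factors and Wald test, GAPDH plus ACTB, other filters, the replicate block, left-out libraries and replicates, fewer times, and limma 3.58.1 on log2(CPM + 1) and log2(CPM + 0.1).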

Additional observations from a re-analysis of the deposited data

How the results depend on the processing

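The HES1 slope kept its direction and call under all 26 alternatives (-1.86 to -1.12), and JAG1 under 25 of 26 (-0.32 to -0.16), the exception being 0 to 2 h. Counts of the 7 tested genes called lower were 4 with library totals for the slope and for 4 h against 0 h. With GAPDH plus ACTB they were 5 for the slope, 2 at 2 h and 5 at 4 h against 0 h, and 4 at 4 h against 1 h. Over 0 to 2 h, 1 was lower by slope. With the replicate block, 1 was higher by slope and at 4 h against 0 h, and 2 at 4 h against 1 h. With it, 2 were lower at 2 h and 3 in both 4 h comparisons, and 1 departed from a line, as 1 did without a filter. Over all genes, 3859 fell and 3694 rose. These were 7729 and 112 with GAPDH plus ACTB, 2215 and 1447 over 0 to 2 h, 4704 and 2242 with library totals, and 4182 and 4356 with the block. No all-gene counts are given for the comparisons between times under these alternatives, so the gene counts there have no background beside them.

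With single replicates or libraries left out, genes higher by slope were 0 to 1 and genes lower 2 to 2. Those lower were 0 to 1 at 1 h, 1 to 2 at 2 h, 1 to 2 at 4 h against 0 h and 1 to 2 at 4 h against 1 h, and those higher 0 to 1 in both 4 h comparisons. For the slope, the all-gene counts were 3468 to 3881 lower and 2968 to 3689 higher. None are given for the comparisons between times, so the gene counts there have no background beside them. The slope of targets minus receptors and ligands was -0.40 to -0.29 with a replicate left out, -0.47 without HES6, -0.59 with summed counts, -0.48 over 0 to 2 h, -0.016 without HES1 and -0.63 without HES4 and HEY1.

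Of the 7 genes, HES1 and JAG1 kept their direction throughout. Turns were seen for the others, whose slopes did not pass with TMM, all libraries and no block. With GAPDH plus ACTB, NOTCH1, NOTCH2 and JAG2 passed as falling, and NOTCH3 passed as rising with the block. The slopes of NOTCH3 and JAG2 kept their direction under all 26 alternatives, and these genes turned only in comparisons between times. NCSTN (-0.011) and PSEN2 (-0.023), which passed with TMM, turned with GAPDH plus ACTB. The cause was not tested. HES6 turned with library totals (slope -0.0089, 2 h -0.055, 4 h against 0 h -0.14) and with GAPDH plus ACTB (slope -0.11, 2 h -0.24, 4 h against 0 h -0.53, 4 h against 1 h -0.057). With GAPDH plus ACTB so did NOTCH1 (1 h -0.050), NOTCH2 (2 h -0.22) and NOTCH3 (1 h -0.013, 2 h -0.10). NOTCH2 turned at 2 h with library totals (-0.040), NOTCH1 at 2 h with DESeq2's size factors (0.010), and both over 0 to 2 h (slopes 0.011 and 0.022). With a replicate or library left out, JAG2 ranged from -0.25 to 0.043 at 1 h, -0.54 to 0.023 at 2 h, -0.57 to 0.025 at 4 h against 0 h and -0.52 to 0.057 at 4 h against 1 h. NOTCH1 ranged from -0.056 to 0.18 at 1 h, -0.059 to 0.061 at 2 h and -0.26 to 0.015 at 4 h against 0 h. NOTCH2 ranged from -0.076 to 0.11 at 2 h and -0.042 to 0.0051 in slope, and HES6 from -0.025 to 0.073 in slope, -0.088 to 0.12 at 2 h and -0.24 to 0.16 at 4 h against 0 h. Of the 9 genes, depth limits HEY1, HES4 and JAG2 most.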
